A study of Mus musculus with 22 samples.

Results

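The combined change was the difference between 7 double arrays, from mouse embryonic fibroblasts (MEFs) in which a mutant oncogene had been switched on and the gene of the transcription factor Wt1 deleted, and 5 control arrays. These 12 arrays were chosen by their titles from the 22 arrays used here, and the comparison covered 18193 genes. Control MEFs were labelled wild type and received an adenovirus carrying GFP. Double MEFs received an adenovirus carrying Cre recombinase, which per the labels both activated the oncogene and removed Wt1; their individual alleles are not spelled out beyond a mutant and Wt1-null genotype. Other sets that also received Cre are used for reference, 5 oncogene arrays (cells with a Cre-dependent oncogene allele and no stated Wt1 change) and 5 Wt1-null arrays (Wt1f/f cells). RNA was taken 7 days after infection in every group. Cre virus was present in every double array and GFP virus in every control array, so the effect of the virus and of the genotype cannot be told apart in what follows. The labels do not say whether arrays of a group came from separate embryos or cultures, so the p-values measure only the spread between these arrays, which may be technical.

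MEFs are primary fibroblasts grown from mid-gestation embryos; they secrete collagen matrix and divide for a limited number of passages. An active Ras-type signal passes through the RAF, MEK and ERK kinases, and ERK switches on both growth genes and a set of feedback inhibitors, the dual-specificity phosphatases, Sprouty and Spred proteins, that damp the same pathway. Growth signalling also meets the amino acid response, in which the transcription factor ATF4 raises genes for amino acid synthesis, amino acid import and tRNA charging. Wt1 is a zinc finger factor of the developing kidney, gonad and mesothelium.

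Levels were log2 RMA values, and differences are double minus control with the standard error (SE) of a limma fit. A gene was called when its adjusted p (Benjamini-Hochberg over all 18193 genes) was below 0.05. The background level, read from 3 Y-linked genes in the 9 arrays with high Xist, ran from 3.65 to 5.06; for a gene in this range in control the size of a rise is not well measured. Wt1 itself lay in that range in every group. Control levels of Wt1 were 4.42, 4.46, 4.45, 4.32 and 4.22, and double levels had a lowest of 4.16, a median of 4.41 and a highest of 4.77. The difference of 0.08 ± 0.09 (SE, limma adjusted p = 0.698) therefore gave no check of the deletion. Fibroblast markers were high in both groups: the mean of 12 of them ran from 11.67 to 12.46 in control and from 11.77 to 12.49 in double arrays.

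Some arrays did not sit with their own group. Double replicate 2 was nearly identical to Wt1-null replicate 2, with a correlation of 0.998 over genes and an SD of the difference of 0.152. Wt1-null replicates 3 and 4 were as close to each other (0.998, SD of the difference 0.162). Double replicate 4 had the lowest mean correlation with all other arrays, 0.94, and double replicate 1 was closest to a control array, control replicate 3, at 0.984. Double replicates 3, 4 and 6 were closest to the oncogene arrays of the same number, at 0.991, 0.982 and 0.993, so that only replicates 5 and 7 of the double arrays had another double array as the closest. Xist was high in 5 of 7 double and 2 of 5 control arrays, and in 0 of 5 oncogene and 2 of 5 Wt1-null arrays. Many counts below are also given with arrays left out or with the Xist level as a covariate.

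The combined change reached 1078 of 18193 genes, which is 5.93 percent. Of these, 633 were higher in double arrays (3.48 percent of all genes) and 445 lower (2.45 percent). A difference of at least 1 on the log2 scale was found in 435 called genes (2.39 percent of all), in 305 of the genes called higher and 130 of those called lower, and a difference of at least 2 in 83 and 17. Larger steps were therefore more often upward, although 45.4 percent of all genes, called or not, had a level above control. The median difference over all genes was -0.022. Double and control arrays did not overlap at all for 585 called genes, 349 higher and 236 lower, which is 3.22 percent of all genes. Called or not, groups without overlap were found in 4.28 percent of genes, 2.49 percent higher and 1.79 percent lower. The count ranged from 568 to 1729 when 1 array was left out of the fit. It fell to 621, 568 and 635 without control replicates 2, 3 and 4, and rose to 1729 without double replicate 1. Without double replicate 2 it was 898, and without double replicate 4 it was 1390. With the Xist level as a covariate 704 genes were called, and 26 of the 87 called genes picked by the naming rule lost their call.

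**Figure D1:**
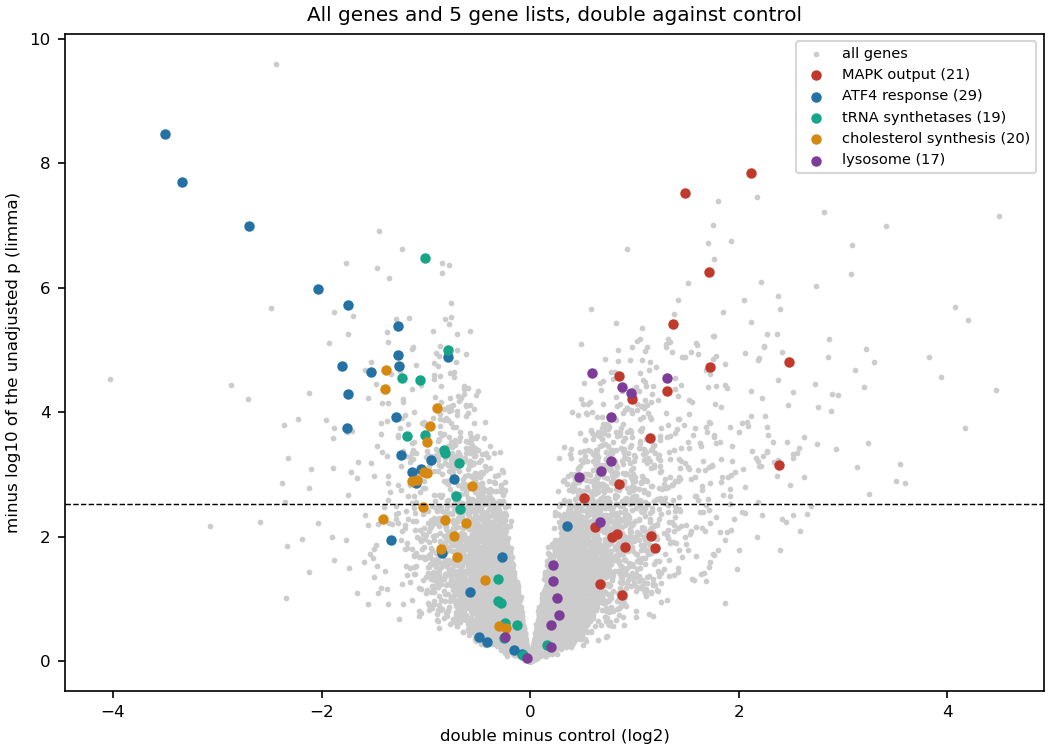
Log2 difference of double minus control (x axis) against minus log10 of the unadjusted limma p (y axis) for each of 18193 genes, with members of 5 gene lists in colour and the call threshold as a dashed line. All 21 measured genes of MAPK output lie to the right of 0 and 28 of 29 ATF4 genes lie to the left, the exception being Stc2.

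The feedback and output genes of the MAP kinase pathway were raised as a group. All 21 measured members (of 23 listed) had a mean above control, and the median difference was 1.15 on the log2 scale. Of these, 13 were called higher and none lower, against a background of 3.48 percent called higher. This list and those below were chosen with earlier results of these data known, so such shares are descriptions and not tests. The mean of the list ran from 8.55 to 9.21 in control and from 9.69 to 10.58 in double arrays, without overlap. The medians against the same control arrays were 1.11 in oncogene and 0.81 in Wt1-null arrays. From 10 to 15 members were called higher when 1 array was left out, and 10 with the Xist covariate. In bulk RNA such as this, fewer cells of a kind and less RNA per cell cannot be told apart.

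Errfi1, which binds and inhibits the EGF receptor, gave levels of 10.94, 11.08, 10.78, 10.81 and 10.45 in the control arrays. Double arrays had a lowest level of 12.55, a median of 12.98 and a highest of 13.44. Every double array was above every control array, and the difference was 2.12 ± 0.24 (SE, limma adjusted p = 8.71e-05). A second probe set of Errfi1 gave 1.83. The Sprouty proteins inhibit receptor signalling upstream of ERK. Spry2 read 8.82, 8.68, 8.77, 8.81 and 8.95 in control, and 10.17, 10.28 and 10.49 as lowest, median and highest in double arrays. The double arrays stayed within a narrow band, and the rise was 1.49 ± 0.17 (SE, limma adjusted p = 0.000106); the other Spry2 probe set gave 0.04, so this rise rests on 1 of 2 probe sets. Spry4 read 7.49, 7.96, 7.74, 7.77 and 7.51 in control and 8.58, 9.44 and 9.91 as lowest, median and highest in double arrays. Its groups did not overlap (1.72 ± 0.24, limma adjusted p = 0.000401), and its 3 other probe sets rose by 2.85, 0.83 and 0.58. Phlda1, an early response gene downstream of growth factors, rose by 1.37 ± 0.22 (SE, limma adjusted p = 0.00132).

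Other called members of the list were the ERK phosphatases Dusp6 (2.48) and Dusp4 (2.39), the ETS factor Etv5 (1.73), Spred2 (1.31), Spred1 (0.85), the AP-1 factor Fosl1 (1.15), the chromatin protein Hmga2 (0.98), Epha2 (0.85) and the cyclin Ccnd1 (0.52), each as a log2 difference. Among the 8 members that were not called, the difference ran up to 1.20 for the EGF family ligand Hbegf and 1.16 for Spred3. Of 18 measured immediate early genes, 1 was called (5.56 percent, near the 5.93 percent over all genes): Egr3, whose level rose from 6.51, 6.86, 6.05, 6.6 and 5.5 in control to 7.39, 9.62 and 10.46 (lowest, median and highest) in double arrays. That difference was 2.86 ± 0.50 (SE, limma adjusted p = 0.00229), but the second Egr3 probe set gave -0.03. The median difference over the immediate early list was 0.24.

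The ATF4 genes moved the other way. Of 29 measured (30 listed), 20 were called lower and none higher, against a background of 2.45 percent, and 28 lay below control with a median of -1.24. The list mean ran from 10.36 to 10.77 in control and from 8.90 to 9.67 in double arrays. Oncogene and Wt1-null arrays had medians of -1.01 and -0.95 against the same controls. Between 15 and 21 members were called lower when 1 array was left out, and 16 with the Xist covariate.

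**Figure D2:**
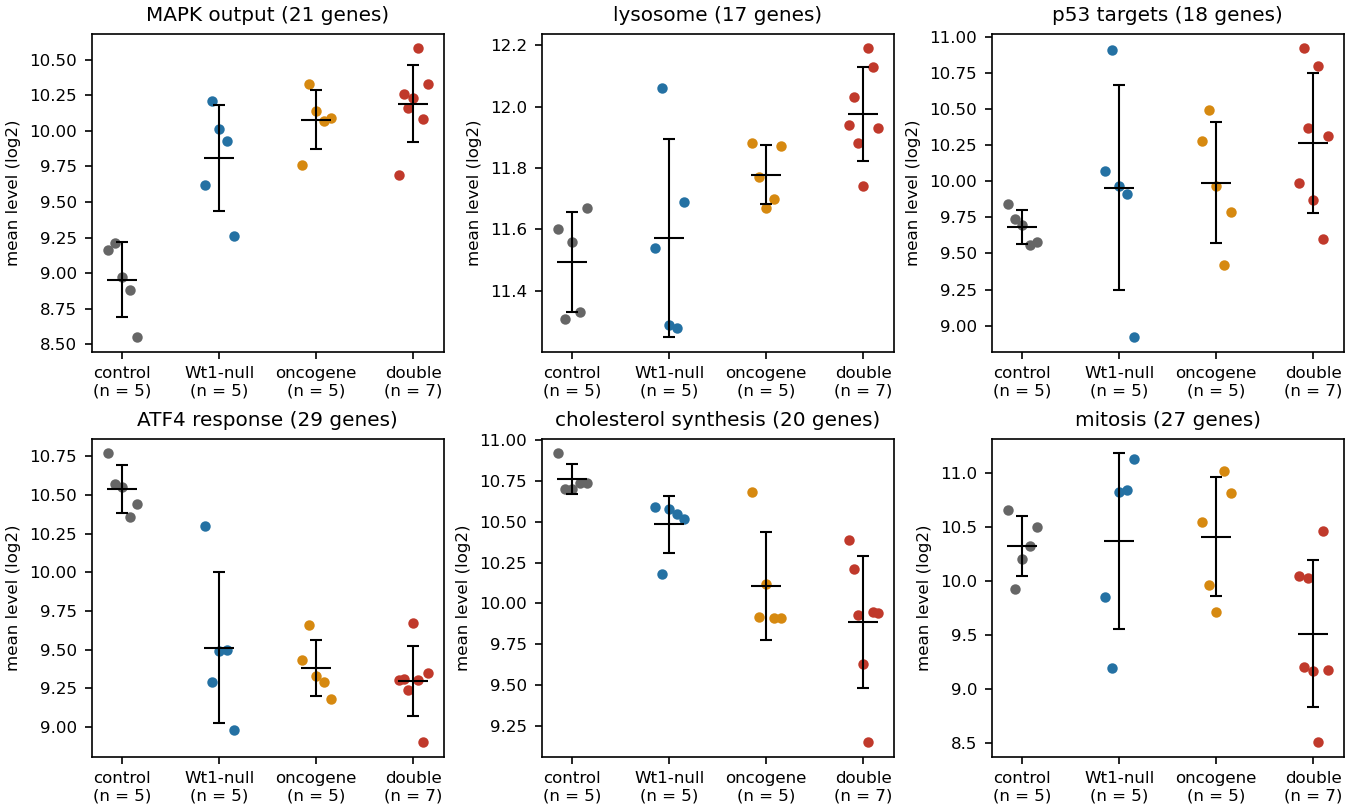
Mean level (log2) of 6 gene lists in each array, by group, with the group mean and SD as bars; control, Wt1-null and oncogene have 5 arrays and double has 7. The double arrays lie above all control arrays for MAPK output and the lysosome, below all of them for ATF4 and cholesterol synthesis, and overlap them for p53 targets and mitosis.

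Trib3, a pseudokinase that restrains ATF4 signalling, read 10.47, 10.83, 11.19, 10.85 and 10.79 in control arrays. Double arrays had a lowest level of 6.95, a median of 7.28 and a highest of 8.06, so the groups were far apart. The level fell by 3.5 on the log2 scale (SE 0.36, limma adjusted p = 3.1e-05), and by 3.90 at the second Trib3 probe set. Aldh1l2, a mitochondrial enzyme of folate metabolism, read 11.64, 10.91, 10.63, 10.59 and 11.26 in control and 7.24, 7.5 and 8.33 in double arrays (lowest, median, highest). Its difference was -3.34 ± 0.38 (SE, limma adjusted p = 9.18e-05). Chac1, which degrades glutathione, read 10.98, 11.08, 11.14, 10.88 and 11.05 in control and 7.59, 8.29 and 9.31 in double arrays; the control arrays lay close together and all 7 double arrays were lower (-2.70 ± 0.34, limma adjusted p = 0.000157). Mthfd2, the mitochondrial folate dehydrogenase, differed by -2.03 ± 0.30 (SE, limma adjusted p = 0.000599) and by -1.75 at its second probe set.

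The other called ATF4 genes fell by 0.73 to 1.80 on the log2 scale. They included the serine synthesis enzymes Phgdh (-1.09), Psat1 (-1.27) and Psph (-1.53), asparagine synthetase Asns (-1.75), the amino acid transporters Slc7a5 (-1.75), Slc7a3 (-1.27), Slc6a9 (-1.26), Slc7a11 (-0.79) and Slc3a2 (-0.73), the factors Atf5 (-1.76), Ddit3 (-1.29) and Atf4 itself (-1.05), and Pck2 (-1.80), Shmt2 (-1.13) and Aldh18a1 (-1.24). Cth was at -1.33 and was not called. Stc2 was above control by 0.35 and was not called. Bcat1, the cytosolic branched-chain amino acid transferase, is outside the list and fell by 2.12 on the log2 scale (SE 0.41, limma adjusted p = 0.00462), with 2 further probe sets at -1.92 and -0.87.

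The cytosolic tRNA synthetases, which attach amino acids to tRNAs, were also lower in part. Of 19 measured (20 listed), 10 were called lower and none higher, against 2.45 percent of all genes called lower, with a median of -0.68, and 18 lay below control. Oncogene arrays had a median of -0.53 and Wt1-null arrays of -0.44. From 7 to 11 synthetases were called lower when 1 array was left out, and 7 with the Xist covariate. Aars read 12.81, 12.79, 12.76, 12.74 and 12.75 in control and 11.07, 11.37 and 12.68 (lowest, median, highest) in double arrays. The highest double array, replicate 4, sat just under the lowest control array, and the mean difference was -1.23 ± 0.23 (SE, limma adjusted p = 0.00343). Eprs read 11.64, 11.84, 11.81, 11.75 and 11.91 in control, against 10.23, 10.95 and 11.08 in double arrays. It fell by 1.01 on the log2 scale (SE 0.14, limma adjusted p = 0.000318), and 3 further probe sets gave -1.14, -1.19 and -0.32. Lars differed by -0.79 ± 0.14 (SE, limma adjusted p = 0.00207) and Cars by -1.06 ± 0.20 (SE, limma adjusted p = 0.00361), the latter with a second probe set at -0.21. Members with differences between -0.31 and 0.16 were Farsa, Wars, Farsb, Vars, Kars, Hars, Rars and Qars, and none of these was called.

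Since many ATF4 and tRNA synthetase genes were called lower, the 250 bases upstream of their gene starts (RefSeq, mouse GRCm38.p6) were searched for the ATF4-type element TGATGNAA on either strand, in which N is any base. The element was in 7 of 25 ATF4 genes with a promoter in the table (28.0 percent) and in 3 of 12 tRNA synthetases (25.0 percent), against 3.91 percent of 27025 genes. Among members called lower it was in 5 of 17 ATF4 genes (29.4 percent, near the share of the whole list) and in 3 of 7 tRNA synthetases (42.9 percent). The ATF4 genes were listed as such, so their share against all genes says nothing about the calls. A match is a description of the letters in this window, and genes without one may carry others. 4 of these promoters are printed 5′ to 3′ on the gene's strand, with the element in capitals, because their genes were called lower. Chac1 lies at chr2:119350992-119351241 on the plus strand, Slc7a11 at chr3:50443614-50443863 on the minus strand, Aars at chr8:111033592-111033841 on the plus strand and Tars at chr15:11399659-11399908 on the minus strand. Slc7a11 holds 2 matches, 1 on each strand.
Chac1: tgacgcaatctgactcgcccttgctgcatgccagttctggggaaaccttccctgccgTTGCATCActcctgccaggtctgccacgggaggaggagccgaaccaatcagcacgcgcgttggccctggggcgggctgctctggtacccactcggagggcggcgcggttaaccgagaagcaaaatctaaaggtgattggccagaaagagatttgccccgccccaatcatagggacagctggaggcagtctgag
Slc7a11: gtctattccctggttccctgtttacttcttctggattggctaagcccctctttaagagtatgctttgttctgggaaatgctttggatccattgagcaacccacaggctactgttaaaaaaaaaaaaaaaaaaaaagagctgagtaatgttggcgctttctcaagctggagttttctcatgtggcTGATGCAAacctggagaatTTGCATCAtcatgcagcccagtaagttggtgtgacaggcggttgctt
Aars: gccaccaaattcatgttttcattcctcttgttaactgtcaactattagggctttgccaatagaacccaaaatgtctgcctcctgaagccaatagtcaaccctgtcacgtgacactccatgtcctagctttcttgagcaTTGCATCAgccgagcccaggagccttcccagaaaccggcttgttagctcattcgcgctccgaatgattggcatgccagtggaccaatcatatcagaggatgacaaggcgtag
Tars: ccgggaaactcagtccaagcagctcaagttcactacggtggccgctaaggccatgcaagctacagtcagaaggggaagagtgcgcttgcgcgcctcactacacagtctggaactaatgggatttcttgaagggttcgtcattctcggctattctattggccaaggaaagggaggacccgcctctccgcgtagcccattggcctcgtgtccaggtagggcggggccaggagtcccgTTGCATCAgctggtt

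The first base of the element lay 193 bases before the gene start in Chac1, 66 and 47 in Slc7a11, 112 in Aars and 15 in Tars.

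Of 23 measured chaperones and other genes of endoplasmic reticulum folding, 6 were called lower, against 2.45 percent of all genes, and the median was -0.18. Herpud1, a component of the degradation machinery of that compartment, read 11.03, 11.04, 10.98, 10.86 and 11.14 in control and 9.38, 9.55 and 10.58 (lowest, median, highest) in double arrays, a difference of -1.29 ± 0.20 (SE, limma adjusted p = 0.00119). The groups did not overlap. Dnajc3 was called lower by its brightest probe set (-1.19 ± 0.29, limma adjusted p = 0.0174), while its 4 other probe sets gave 0.09, -0.53, -0.04 and -0.02. Sdf2l1 and Pdia4 differed by -0.72 and -0.58. The major chaperone Hspa5 differed by -0.12 and was not called, and the list had 3 called members without control replicate 1 and also with the Xist covariate.

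Genes of cholesterol synthesis lay below control. All 20 measured genes (24 listed) had a mean below control, 10 were called lower against 2.45 percent of all genes, and the median was -0.93. The medians were -0.64 in oncogene and -0.33 in Wt1-null arrays. Cyp51, lanosterol demethylase, read 11.41, 10.88, 10.82, 11.15 and 10.81 in control and 8.55, 9.92 and 10.27 in double arrays (lowest, median, highest). The groups did not overlap and the difference was -1.39 ± 0.27 (SE, limma adjusted p = 0.00432); 2 other probe sets gave -1.44 and -0.81. Lss, lanosterol synthase, read 10.8, 10.54, 10.58, 10.52 and 10.53 in control and 8.48, 9.0 and 10.12 in double arrays, a fall of 1.38 on the log2 scale (SE 0.25, limma adjusted p = 0.00298), with its other probe sets at -0.38 and -0.44. Sqle, squalene epoxidase, fell by 0.89 (SE 0.18, limma adjusted p = 0.00643) and Pmvk by 0.96 (SE 0.21, limma adjusted p = 0.00963). Insig1, Mvd, Fdps, Msmo1, Mvk and Nsdhl made up the other 6 called genes. The count of called genes was between 5 and 12 when 1 array was left out, and 5 or 6 without control replicates 1, 2, 3 or 4 or double replicate 5. In fatty acid synthesis, 2 of 12 genes, the desaturases Fads1 and Fads2, were called lower (-0.91 and -0.92), and none with the Xist covariate; the second Fads1 probe set gave 0.06, and Fasn was at 0.42 and not called.

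**Figure D3:**
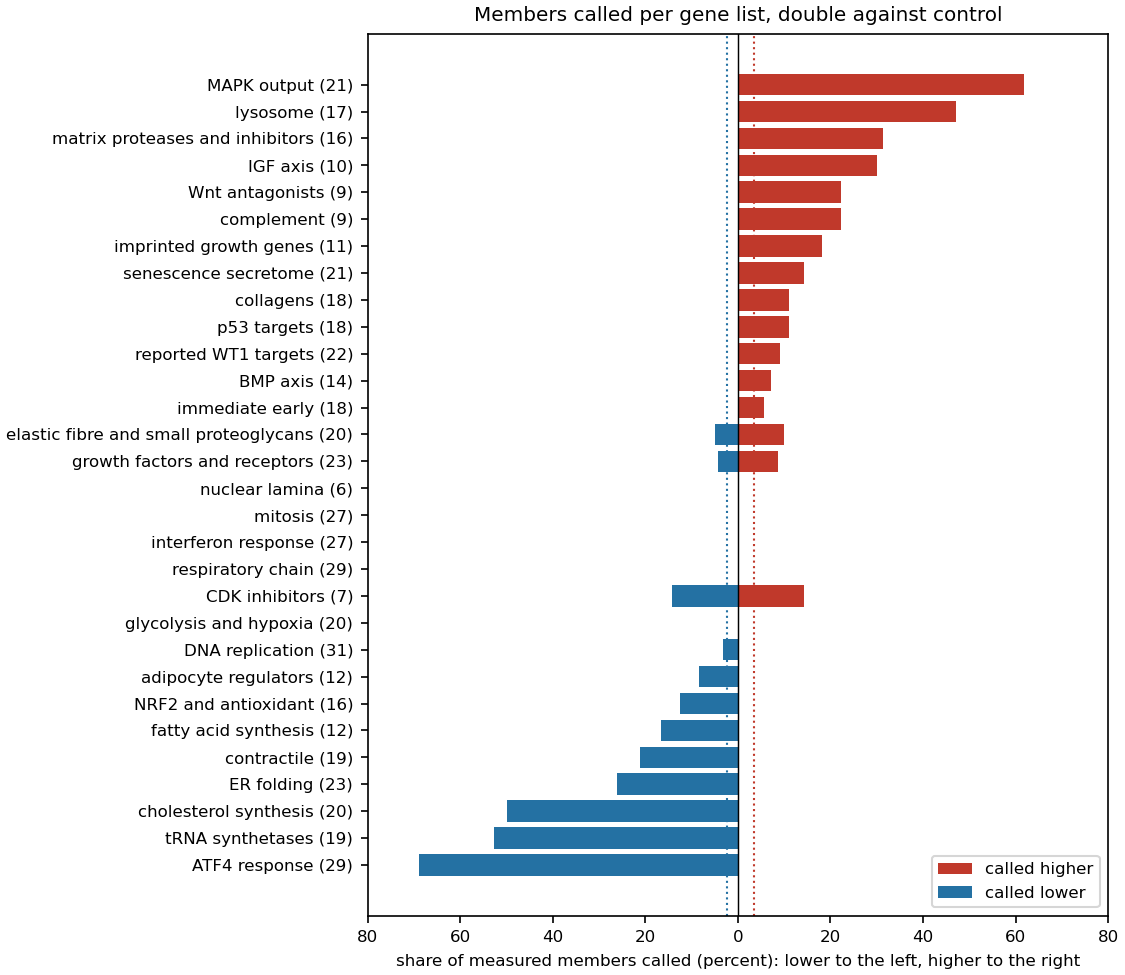
Share of measured members called lower (left) and higher (right) for 30 gene lists, as a percent, with the number measured in brackets and dotted lines at the shares over all genes, 2.45 and 3.48 percent. MAPK output and lysosome have the largest shares called higher, 61.9 and 47.1 percent, and ATF4 and tRNA synthetases the largest called lower, 69.0 and 52.6 percent.

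Several lysosomal genes rose. Of 17 measured (22 listed), 8 were called higher against 3.48 percent of all genes and none lower, with a median of 0.47, and the median was 0.34 in oncogene and 0.06 in Wt1-null arrays. Tpp1, a lysosomal peptidase, read 11.51, 11.34, 11.38, 11.32 and 11.86 in control and 12.09, 12.78 and 13.4 in double arrays (lowest, median, highest). All double arrays were above all control arrays (1.31 ± 0.24, limma adjusted p = 0.00345; 1.5 at the second probe set). Ctsd, cathepsin D, read 12.61, 12.63, 13.02, 12.75 and 12.85 in control and 13.37, 13.68 and 14.05 in double arrays. Its groups did not overlap either, at 0.88 ± 0.17 (SE, limma adjusted p = 0.00417). Gaa, the acid glucosidase, rose by 0.97 (SE 0.19), the cholesterol carrier Npc2 by 0.59 (SE 0.11) and Glb1, the beta-galactosidase, by 0.78. Lamp1 and Lamp2, which coat the lysosomal membrane, differed by 0.22 and -0.24 and were not called. Without control replicate 2 or 4, and with the Xist covariate, the list had 5 called members. The E-box of lysosomal genes, TCACGTGA, searched on either strand, was in 2 of 15 list members with a promoter (13.3 percent) against 0.907 percent of all genes. These genes were listed as lysosomal, so that share says nothing about the calls. The Ctsd promoter holds it 99 bases before the gene start, at chr7:142387828-142388077 on the minus strand, with the E-box in capitals.
Ctsd: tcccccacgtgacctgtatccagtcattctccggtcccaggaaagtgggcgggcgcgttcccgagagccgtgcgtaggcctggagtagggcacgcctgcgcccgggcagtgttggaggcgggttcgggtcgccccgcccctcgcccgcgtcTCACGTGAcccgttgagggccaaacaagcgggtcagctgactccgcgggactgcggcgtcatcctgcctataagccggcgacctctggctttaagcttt

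The sterol element TCACNCCAC, searched in the same way, was in 1 of 16 cholesterol synthesis genes, Hmgcs1, which was not itself called, against 1.22 percent of all genes. It was in 0 of 8 members called lower. The lysosomal E-box was in 1 of 7 lysosomal genes called higher, Ctsd.

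**Figure D4:**
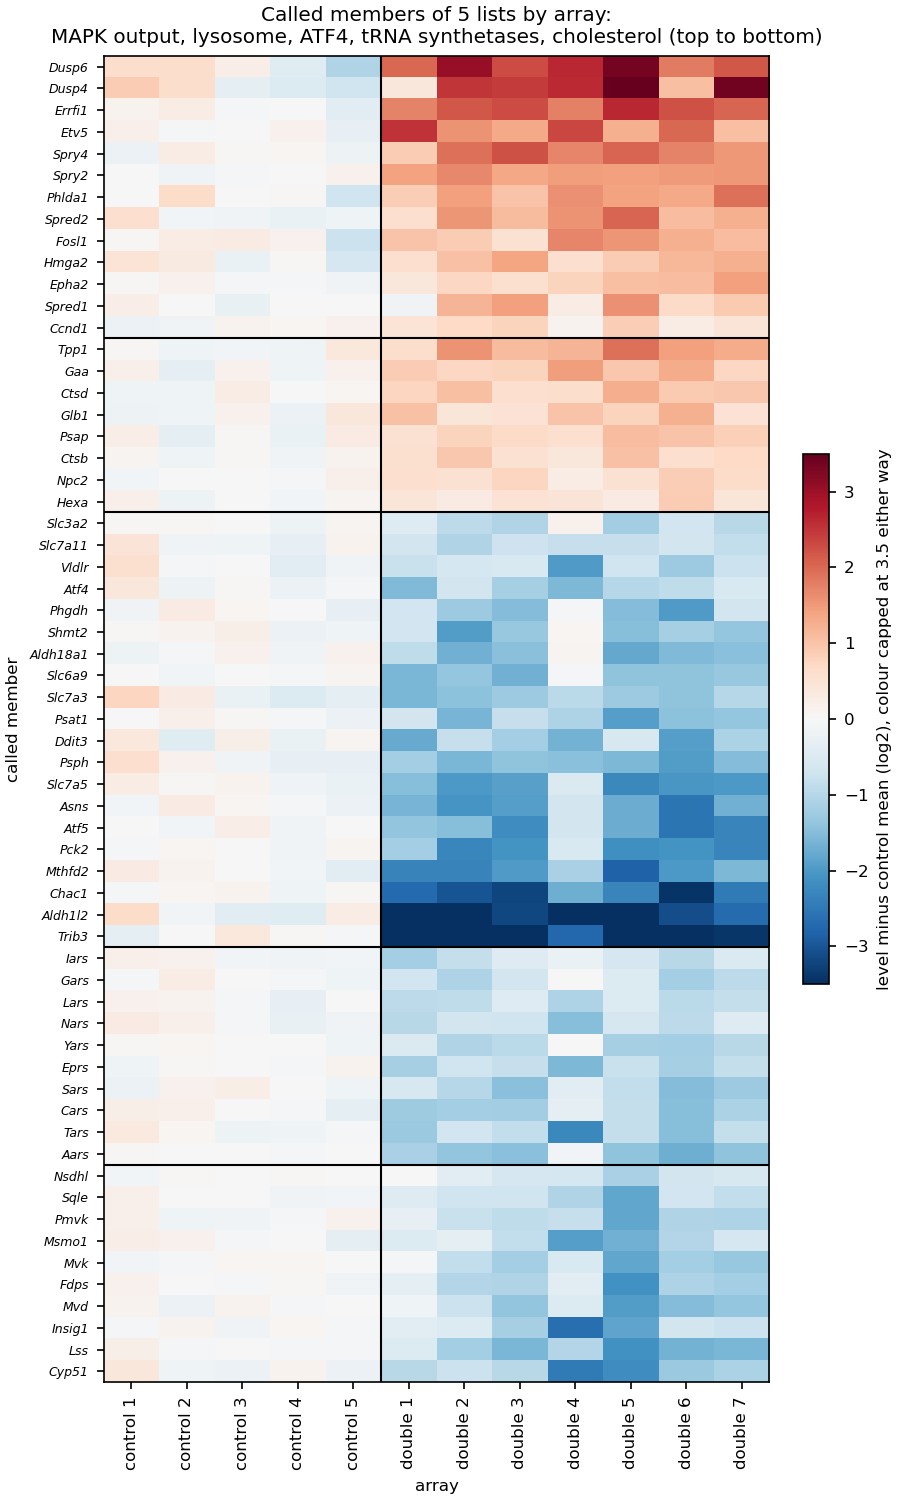
Level minus the control mean (log2, colour, capped at 3.5 either way) of the called members of 5 lists (rows) in the 5 control and 7 double arrays (columns). Double replicate 4 is paler than the others for several ATF4 and tRNA synthetase genes (Aars 12.68 against a double median of 11.37), and double replicate 5 is the lowest for most cholesterol genes (Sqle 9.91).

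Among genes of the extracellular matrix, several secreted proteases rose. Mmp3, stromelysin, read 8.8, 7.31, 8.47, 7.98 and 8.06 in control and 11.54, 12.16 and 13.25 in double arrays (lowest, median, highest). That rise of 4.08 ± 0.62 (SE, limma adjusted p = 0.000985) left a wide gap between the groups. Mmp2, a gelatinase, rose by 1.85 (SE 0.29, limma adjusted p = 0.00104; 1.92 at a second probe set) and Mmp19 by 1.0 (SE 0.27, limma adjusted p = 0.0289). The collagenase Mmp13 was at background in every control array, at 4.93, 4.77, 4.8, 4.47 and 4.37. Double arrays spread widely, with a lowest of 5.16, a median of 8.6 and a highest of 10.54, and the rise was 3.25 ± 0.92 (SE, limma adjusted p = 0.0399). Serpinb2, an inhibitor of urokinase, was also at background in control (4.83, 5.05, 4.21, 4.35 and 4.31) and reached 5.82, 8.32 and 10.88 (lowest, median, highest) in double arrays, a rise of 3.55 ± 0.89 (SE, limma adjusted p = 0.0199). In total 5 of 16 genes for matrix proteases and their inhibitors were called higher, against 3.48 percent of all genes. The count was 3 without control replicate 2, 3, 4 or 5 or double replicate 5, and 2 with the Xist covariate. The inhibitors Timp1, Timp2 and Timp3 differed by -0.05, 0.24 and -0.26 and were not called.

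Of 18 collagen genes, 2 were called, both higher, against 3.48 percent of all genes called higher. They were Col18a1 of basement membranes (1.66 ± 0.41, limma adjusted p = 0.019) and Col6a3 (0.98 ± 0.28, limma adjusted p = 0.0436). The count called higher ran from 0 to 5 when 1 array was left out, and was 0 with the Xist covariate. The fibrillar genes Col1a1, Col1a2 and Col3a1 were at -0.60, -0.11 and -0.18 and were not called. Among elastic fibre and small proteoglycan genes, 3 of 20 were called, against 5.93 percent of all genes. With 1 array left out, 2 were called higher and 0 to 2 lower. Efemp1, a fibulin, read 10.95, 9.79, 9.75, 10.56 and 10.71 in control and 12.53, 13.22 and 13.76 in double arrays. Its rise of 2.82 ± 0.34 (SE, limma adjusted p = 0.00014) had no overlap between groups. Ltbp1, which stores latent TGF-beta, rose by 0.84 (SE 0.14, limma adjusted p = 0.00207), and Fmod, fibromodulin, fell by 1.89 on the log2 scale (SE 0.48, limma adjusted p = 0.022), with all 5 other probe sets between -1.57 and -2.76. Fn1, fibronectin, rose by 0.91 (SE 0.24, limma adjusted p = 0.0256) at its brightest probe set and gave -0.08 at the other; control arrays and double replicate 1 (12.9) overlapped.

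Contractile genes were called lower at 4 of 19, against 2.45 percent of all genes. Cnn1, calponin, read 12.15, 13.14, 12.58, 12.34 and 11.07 in control and 8.09, 9.58 and 10.7 in double arrays (lowest, median, highest). It fell by 2.71 on the log2 scale (SE 0.54, limma adjusted p = 0.00538), to below every control array. Actg2, enteric actin, read 12.29, 12.65, 11.7, 11.97 and 10.9 in control and 8.78, 9.2 and 11.07 in double arrays; the highest double array, replicate 4, exceeded the lowest control array, and the level fell by 2.36 (SE 0.51, limma adjusted p = 0.00941). Lmod1 and Cnn2 fell by 1.15 and 0.34. Acta2, Tagln and Myh11 were at -0.47, -0.63 and -1.10 and were not called. The count was 2 without any of control replicates 1 to 4 or double replicates 3, 5 or 6, 2 with the Xist covariate and 7 without Wt1-null replicate 2.

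**Figure D5:**
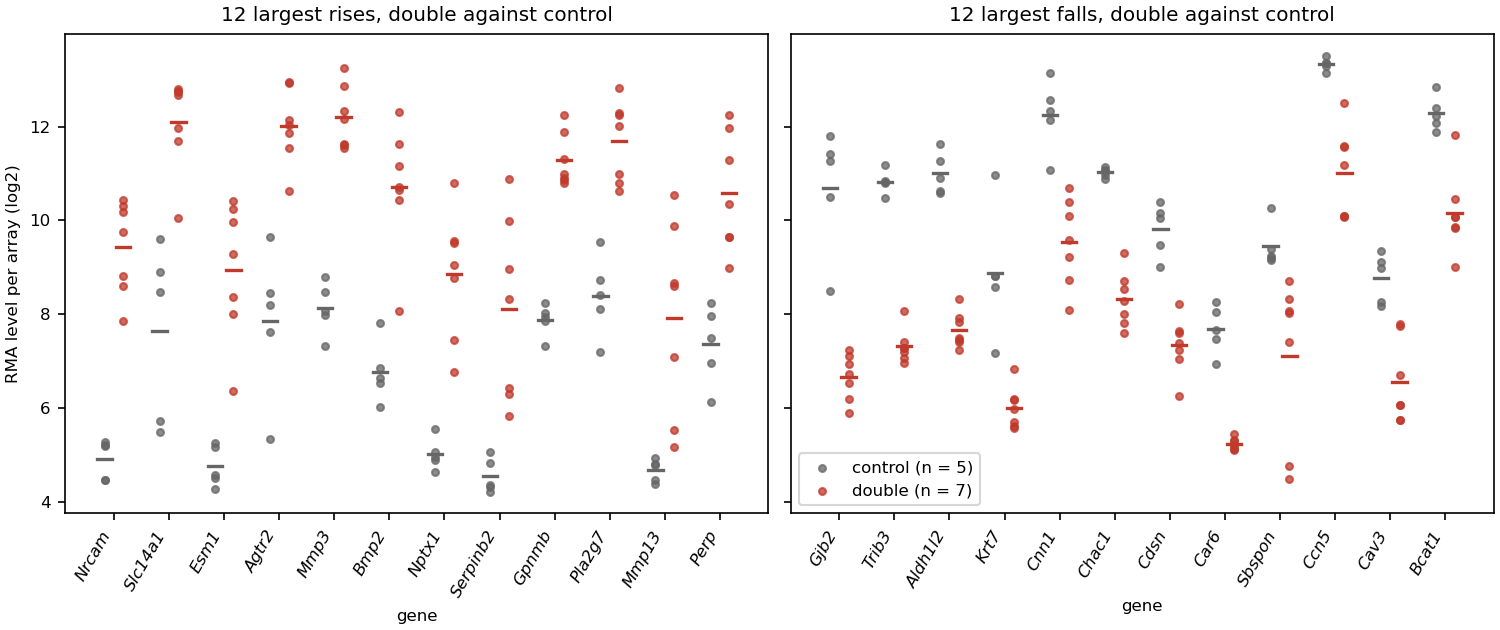
RMA level (log2) of the 12 largest rises (left) and 12 largest falls (right) among called genes without overlap, in each of 5 control (grey) and 7 double (red) arrays, with the group mean as a bar. Nrcam, Esm1, Nptx1, Serpinb2 and Mmp13 start near background in the control arrays.

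The largest rise was in Nrcam, a neural cell adhesion molecule of the immunoglobulin family. It read 5.26, 4.47, 4.46, 5.21 and 5.19 in control, at or near background, and 7.85, 9.76 and 10.43 in double arrays (lowest, median, highest). The difference was 4.5 ± 0.55 (SE, limma adjusted p = 0.000142), and 3 other probe sets gave 1.99, 0.28 and 0.17. Slc14a1, a urea transporter, read 5.49, 5.71, 8.91, 8.47 and 9.6 in control and 10.06, 12.68 and 12.8 in double arrays. The control arrays fell into low and middle levels, yet none reached a double array (4.47 ± 0.87, limma adjusted p = 0.00441; 3.33 at the second probe set). Agtr2, an angiotensin receptor, read 8.2, 5.33, 8.45, 7.61 and 9.65 in control and 10.62, 12.04 and 12.95 in double arrays (4.17 ± 0.91, limma adjusted p = 0.00998). Esm1, a secreted proteoglycan of endothelium, rose by 4.2 (SE 0.67, limma adjusted p = 0.00121) from background. Gpnmb, a glycoprotein of melanosomes and lysosomes, rose by 3.41 (SE 0.43, limma adjusted p = 0.000157), with a second, background-level probe set at 0.88. Pla2g7, which degrades platelet-activating factor, rose by 3.30 (SE 0.59, limma adjusted p = 0.00243), and the pentraxin Nptx1 by 3.83 (SE 0.67, limma adjusted p = 0.00229; 1.76 at the second probe set).

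The smallest p in the comparison belonged to Car6, a secreted carbonic anhydrase. It read 8.26, 8.04, 7.66, 6.93 and 7.48 in control and 5.1, 5.21 and 5.44 in double arrays (lowest, median, highest). The double arrays lay in a narrow band close to background, and the level fell by 2.44 (SE 0.21, limma adjusted p = 4.57e-06). Gjb2, a gap junction connexin, read 11.27, 11.8, 11.42, 10.49 and 8.49 in control and 5.9, 6.73 and 7.23 in double arrays, the largest fall (-4.03 ± 0.76, limma adjusted p = 0.00355). Krt7, a keratin of simple epithelia, fell by 2.87 (SE 0.55, limma adjusted p = 0.00406), Cdsn, a desmosomal adhesion protein, by 2.48 (SE 0.38, limma adjusted p = 0.000985), Ccn5, a matricellular protein, by 2.32 (SE 0.57, limma adjusted p = 0.0181), Cav3, the muscle caveolin, by 2.23 (SE 0.47, limma adjusted p = 0.00819) and Sbspon, a matrix protein with a thrombospondin repeat, dropped by 2.35 (SE 0.69, limma adjusted p = 0.0487). Among 13 epithelial markers the desmoplakin gene Dsp went the other way, from background in 4 of 5 control arrays to 6.35, 7.44 and 9.77 (lowest, median, highest) in double arrays (2.76 ± 0.56, limma adjusted p = 0.00627). Epcam and Cdh1, which define epithelium, differed by 0.11 and 0.15 and were not called.

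Genes for mitosis were below control at all 27 measured, with a median of -0.82. None was called by limma at an adjusted p below 0.05, although 13 had an unadjusted p below 0.05. Over all 18193 genes, 3660 had an unadjusted limma p below 0.05 in this comparison. The mean level of the mitosis genes was 10.66, 9.93, 10.21, 10.33 and 10.5 in control arrays. In double arrays it was 10.05, 9.21, 10.03, 9.17, 8.51, 10.47 and 9.18 for replicates 1 to 7. Replicates 1, 3 and 6 lay within the control range and the other 4 below it. The count of called members was 6 without double replicate 1, 4 without Wt1-null replicate 2 and 2 without double replicate 6. The medians were 0.02 in oncogene and 0.01 in Wt1-null arrays. DNA replication genes had a median of -0.46, and 28 of 31 lay below control. Of the 31, 1 was called lower (3.23 percent, near the 2.45 percent of all genes). It was Tyms (-0.50 ± 0.14, limma adjusted p = 0.0408), which was not called once any 1 control array was left out. With the Xist covariate none was called and the median of the list was -0.21. The nuclear lamina and Hmgb2 list of 6 genes had a median of -0.56 and none called (2 at an unadjusted p below 0.05).

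Among 7 inhibitors of cyclin-dependent kinases, 2 were called in opposite directions, against 5.93 percent of all genes called. Cdkn1b read 9.44, 8.92, 9.0, 9.04 and 9.33 in control and 7.44, 7.76 and 8.88 in double arrays (-1.13 ± 0.27, limma adjusted p = 0.0164), while Cdkn1c rose by 0.99 (SE 0.28, limma adjusted p = 0.036). Cdkn2a and Cdkn1a were at 1.42 and 0.57 and were not called. With the Xist covariate neither call was kept. Of 18 p53 target genes, 17 lay above control with a median of 0.39, and 2 were called higher, against 3.48 percent of all genes. They were Perp, a desmosomal protein (3.24 ± 0.75, limma adjusted p = 0.0136), and the RNA-binding protein Zmat3 (0.98 ± 0.27, limma adjusted p = 0.033). Mdm2 was at 1.05 and was not called. The p53 median was 0.16, with 1 called member, when Xist was a covariate, and it ran from 0.25 to 0.55 when 1 array was left out. The senescence secretome had 3 of 21 members called higher, against 3.48 percent of all genes. These were the cytokines Il33 (2.37 ± 0.62, from background in every control array), Ccl8 (1.36 ± 0.37) and Csf1 (1.0 ± 0.30), with limma adjusted p of 0.0264, 0.0324 and 0.0495. None of them was called without control replicate 2, 3, 4 or 5 or double replicate 5 or 7, or with the Xist covariate. Il6 and Cxcl1 were at 0.39 and 0.36 and were not called. No interferon response gene of 27 was called (3 at an unadjusted p below 0.05), nor any of 20 glycolysis genes (1) or of 29 respiratory chain genes (5). The same unadjusted limit was met by 3660 of all 18193 genes.

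Secreted growth regulators held several large rises. Bmp2, a bone morphogenetic protein, read 6.63, 6.01, 6.86, 6.54 and 7.81 in control and 8.06, 10.71 and 12.32 in double arrays (lowest, median, highest). The lowest double array, replicate 4, was just above the highest control array, and the rise was 3.94 ± 0.73 (SE, limma adjusted p = 0.00341). No other gene of 14 on the BMP axis was called (7.14 percent called, near the 5.93 percent over all genes). The Wnt antagonists Dkk2 and Frzb rose by 3.20 (SE 0.61, limma adjusted p = 0.00417) and 3.12 (SE 0.57, limma adjusted p = 0.00298). The second Frzb probe set gave 3.28. Dkk2 and Frzb were 2 of 9 such genes, against 3.48 percent of all genes called higher. Double replicate 4 read 9.68 for Dkk2 and overlapped control, while the other 6 double arrays did not.

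Igfbp3, which binds insulin-like growth factors, read 9.28, 7.85, 9.87, 8.65 and 10.21 in control and 10.4, 12.16 and 12.85 in double arrays (2.63 ± 0.59, limma adjusted p = 0.012; 2.45 at the second probe set). The receptors Igf2r and Igf1r rose by 1.30 (SE 0.36, limma adjusted p = 0.0343) and 1.13 (SE 0.32, limma adjusted p = 0.0406), the latter with 4 other probe sets between 0.23 and 0.67. Igfbp2 was at -3.07 and was not called. The 3 calls among 10 genes of this axis, all higher, stood against 3.48 percent of all genes. The count became 1 without control replicate 2, 3 or 4 or double replicate 2, 5 or 6, and also with the Xist covariate. Dlk1, an imprinted inhibitor of adipocyte formation, read 8.81, 7.76, 7.78, 7.95 and 8.26 in control and 10.06, 10.92 and 11.65 in double arrays, a rise of 2.74 ± 0.40 (SE, limma adjusted p = 0.000561), but its second probe set gave 0.16. The receptors Pdgfra and Met rose by 1.78 (SE 0.41, limma adjusted p = 0.0136) and 1.72 (SE 0.37, limma adjusted p = 0.00869). The neurotrophic factor gene Artn fell by 1.75 (SE 0.29, limma adjusted p = 0.00162). Pdgfra, Met and Artn were the 3 called of 23 growth factors and receptors, against 5.93 percent of all genes.

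Of 9 complement genes, 2 that restrain complement and protect cells from lysis were called higher, against 3.48 percent of all genes. Serping1, an inhibitor of the first complement component, read 7.83, 7.32, 7.29, 8.18 and 8.19 in control and 10.15, 10.98 and 11.36 in double arrays (3.08 ± 0.43, limma adjusted p = 0.000401). Cd55, decay-accelerating factor, rose by 2.90 (SE 0.57, limma adjusted p = 0.00472), and its other probe sets by 2.81 and 2.94. The remaining 7 complement genes were not called. Of 16 genes on the NRF2 list, 2 glutathione genes were called lower, against 2.45 percent of all genes. They were Gsr (-1.33 ± 0.24, limma adjusted p = 0.00318) and Gclm (-0.69 ± 0.16, limma adjusted p = 0.0162), while Nqo1 and Hmox1 were at 0.16 and -0.30 and were not called. Of 22 genes reported as WT1 targets, 2 were called (9.09 percent, against 5.93 percent over all genes), both higher, and from 0 to 3 when 1 array was left out. They were Igf1r and Aldh1a2, a retinoic acid synthesis enzyme that was near background in control (1.44 ± 0.37, limma adjusted p = 0.0221).

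Markers of other cell types were measured for whole lists. The share called over all genes, to set beside these counts, was 5.93 percent. The mean of 8 mesothelium markers ran from 6.01 to 6.56 in control and from 6.39 to 7.31 in double arrays, with 3 of the 8 at background in all groups and 1 called, Cpe (0.92 ± 0.27, limma adjusted p = 0.0479; 0.30 at its second probe set). The mean of 13 epithelium markers ran from 6.5 to 7.23 in control and from 6.20 to 7.05 in double arrays, and its 3 called members, Gjb2, Krt7 and Dsp, are described above. For 12 endothelium markers the ranges were 6.03 to 6.23 and 5.97 to 6.31; Tek was called higher (1.29 ± 0.37, limma adjusted p = 0.0448) and Erg lower (-1.93 ± 0.32, limma adjusted p = 0.00193; -0.31 at its other probe set), while Pecam1 and Cdh5, which define endothelium, were at -0.10 and -0.08. For 12 macrophage markers the ranges were 5.59 to 5.86 and 5.74 to 6.15, and Cd68 was called (0.80 ± 0.22, limma adjusted p = 0.0305), with Ptprc and Csf1r at -0.16 and -0.08. Of 9 chondrocyte markers Matn3 was called lower (-0.49 ± 0.12, limma adjusted p = 0.0193), and of 12 adipocyte regulators Fabp5 (-1.05 ± 0.28, limma adjusted p = 0.029; -1.39 at its second probe set). None of 12 skeletal muscle, 9 neural or 5 erythroid markers was called by limma (2, 3 and 0 at an unadjusted p below 0.05). That unadjusted limit was met by 3660 of all 18193 genes. With the Xist covariate no mesothelium, macrophage, chondrocyte or adipocyte gene of these lists was called, and 1 endothelium marker was. What part a shift in cell types had in the combined change was not tested.

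Of the 87 called genes picked by the naming rule (the 24 largest changes and at most 4 members of each list), 60 were called in every fit with 1 array left out. The others lost the call in some of the 22 such fits. Cpe and Fads1 lost it in 17, Sbspon in 16, Cnn2 in 15, Csf1 and Tek in 14, Igf1r in 11, Col6a3, Mmp13 and Tyms in 10, Zmat3 in 9, Ccl8 and Lmod1 in 8, and Cdkn1c, Igf2r and Il33 in 7. Cd68 and Fabp5 lost it in 6, Fads2 and Fn1 in 4, Col18a1, Fmod and Mmp19 in 3, Matn3, Sdf2l1 and Serpinb2 in 2 and Aldh1a2 in 1.

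The combined change was then set beside each single change with the groups compared directly. Between double and oncogene arrays limma called 0 of 18193 genes, and no alternative fit called a gene. An unadjusted limma p below 0.05 was found for 562 genes, fewer than chance alone gives where no gene differs. The differences for 5 genes described above were smaller than 2 times their error: Errfi1 0.18 ± 0.24, Trib3 0.24 ± 0.36, Cyp51 -0.38 ± 0.27, Nrcam -0.36 ± 0.55 and Mmp3 0.99 ± 0.62 (SE). A difference that missed the threshold does not show that the groups were alike. For Dsp, double arrays were above oncogene arrays by 1.86 ± 0.56, for Tyms below by 0.51 ± 0.14 and for Dlk1 below by 1.13 ± 0.40, each with a limma adjusted p of 1.0.

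Between double and Wt1-null arrays 15 genes were called (0.0824 percent), none of them on any list or among the 87 called genes picked by the naming rule. Icam1 (2.29 ± 0.41, limma adjusted p = 0.0394) and Rbpj (1.20 ± 0.22, limma adjusted p = 0.0394) were 2 of them. For the 87 genes the smallest limma adjusted p was 0.0558, at Nptx1 (3.41 ± 0.67, SE) and Cnn1 (-2.69 ± 0.54). This count changed when single arrays were left out. It was 0 without Wt1-null replicate 1, 3 or 4 or double replicate 3 or 5. Without Wt1-null replicate 2, the array nearly identical to double replicate 2, 925 genes were called (5.08 percent), and 46 of the 87 genes were, 31 higher and 15 lower in double arrays. Without both of these replicates 671 genes were called, 42 of the 87 among them. With the near-identical Wt1-null replicates 3 and 4 averaged into 1, an alternative chosen after seeing the data, 0 genes were called. With Wt1-null replicate 2 left out as well, 354 were called, 35 of the 87 among them. The smallest limma adjusted p of the 87 genes was then 0.000983, at Spry2. The 87 genes were picked by their difference from control in these same double arrays. Their shares called here are therefore descriptions and not tests. The values that follow count Wt1-null replicates 3 and 4 as separate arrays. In the fit without Wt1-null replicate 2, the double arrays exceeded the other 4 Wt1-null arrays for Agtr2 (4.80 ± 0.60, limma adjusted p = 0.00023), Slc14a1 (4.80 ± 0.67, limma adjusted p = 0.000589), Mmp3 (3.27 ± 0.41, limma adjusted p = 0.00023) and Spry2 (0.93 ± 0.12, limma adjusted p = 0.00023), and lay below them for Gjb2 (-4.35 ± 0.64, limma adjusted p = 0.000818) and Cnn1 (-3.32 ± 0.44, limma adjusted p = 0.000328). The ATF4 genes Trib3 (-0.52 ± 0.36) and Chac1 (-0.64 ± 0.33), the synthetases Aars (-0.26 ± 0.24) and Eprs (-0.37 ± 0.15), and Phlda1 (-0.04 ± 0.24) were not called there, while Mthfd2 (-1.40 ± 0.26, limma adjusted p = 0.00426) and Aldh1l2 (-1.47 ± 0.33, limma adjusted p = 0.0125) were.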

How the data were processed

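The authors deposited log2 values normalized by RMA in Affymetrix Expression Console, per the submitters' processing notes; the software version is not given in the sources used here. RMA sets all arrays to a common distribution, so a change shared by most transcripts would be hidden. Values ran from 3.29 to 15.14, and no scanner files were used here, so the number of arrays limits the precision. Of 45101 probe sets, 34945 had an annotation naming 1 gene, and 34741 of these matched RefSeq (GRCm38.p6) by gene ID. Each of 18193 genes was read from its brightest probe set. All 22 arrays were fitted as 4 group means with limma (version 3.58.1, under R 4.3.3), and the script was tested on simulated data. A sixth oncogene array is not analysed here, and the oncogene is not reported here by name. Samples were grouped by their titles and genotype labels.

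The members and the 39 gene lists were chosen with earlier results of these data known, and lists are described by counts and medians only. Genes named with full statistics were the 12 largest rises and 12 largest falls among called genes without overlap, leaving out clone names, the called members of each list with the lowest p (at most 4 a list), and Wt1. Other list members, given with a log2 difference alone, were picked after their values were seen. The alternatives covered the probe set rule, dim genes, normalization, variance, array weights, blocks, an Xist covariate, arrays that stood apart and each array left out in turn; averaging 2 near-identical Wt1-null arrays was chosen after seeing the data.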

Additional observations from a re-analysis of the deposited data

Results flagged for a closer look

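An array was singled out where its gap to the next array of its group took up an unusually large share of the group's range, a rule that chance meets in about 1 in 20 groups. The rule was applied to 88 named genes and to the means of 39 lists, each in control and in double arrays. Chance alone would therefore single out several arrays. Double replicate 4 met the rule for Aars at 12.68 and Trib3 at 8.06, where it was the highest of the double arrays. It was the lowest of them for Dkk2 at 9.68 and Slc14a1 at 10.06. Double replicate 1 was the lowest for Fn1 at 12.9, for Igf1r at 9.27 and for the mean of the fibroblast markers at 11.77. Double replicate 5 was the highest for Mmp19 at 9.52 and the lowest for Sqle at 9.91. Double replicate 6 was the highest for Col6a3 at 13.9.

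Among control arrays, replicate 1 was the highest for Dnajc3 at 11.12, for Lss at 10.8 and for the mean of the cholesterol synthesis genes at 10.92. Control replicate 2 was the lowest for Csf1 at 10.89 and for Mmp19 at 6.75. Control replicate 3 was the highest for the mean of the NRF2 genes at 10.54, control replicate 4 for Sbspon at 10.27 and control replicate 5 for Dsp at 5.78.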

How the results depend on the processing

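The count of 1078 genes called between double and control arrays was within 1.5 times of itself under median centring, another quantile normalization, a filter on dim genes, a robust variance with a trend, the mean of all probe sets, a fit of the compared groups alone, a block for the set of accession numbers and a fit within 1 such set. It was 1811 with every probe set tested on its own, 6036 with array weights, 704 with Xist as a covariate, 1831 without oncogene and double replicate 4 together and 435 with a log2 limit of 1. Leaving out 1 array gave 568 to 1729. The replicate numbers did not pair the samples throughout: correlations of deviations between same-numbered arrays ran from -0.47 to 0 for double and control, from -0.14 to 0.77 for double and oncogene and from -0.4 to 0.6 for double and Wt1-null arrays. A fit with the replicate number as a block called 1136 genes in double against control, 0 in double against oncogene and 0 in double against Wt1-null. Double against oncogene gave 0 in every fit. Double against Wt1-null, with 15, gave 6 with the mean of all probe sets, 2 with every probe set, 9 with median centring, 3501 with array weights, 0 in a fit of the compared groups alone, 0 with the accession block, 1 with Xist as a covariate, 24 without oncogene and double replicate 4 together, 671 without Wt1-null and double replicate 2 together, 0 with Wt1-null replicates 3 and 4 averaged and 354 with replicate 2 left out as well (both chosen after seeing the data), 9 with the log2 limit and 0 to 925 with 1 array left out. The fits with every probe set tested or a fold limit differ by construction; for the others, and for the rises when arrays were left out, the cause was not tested. None of the 87 called genes picked by the naming rule changed direction. Such a change was unlikely, since the genes were picked by their calls in these same arrays. Of 3219 values under alternatives, 2890 kept the call and 329 lost it. Some list medians moved with the mean of all probe sets. MAPK output went from 1.15 to 0.85, ATF4 from -1.24 to -1.04 and cholesterol synthesis from -0.93 to -0.73. The lysosome median went from 0.47 to 0.28, while that of matrix proteases rose from 0.32 to 0.44.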

Other observations

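Genes outside every list that the naming rule had not picked were ranked by p, after their values were seen. The ones with the smallest p were Trib2, a pseudokinase related to Trib3, and the protocadherin Pcdh7, both higher in double arrays. Trib2 ran from 8.89 to 10.07 in control and from 11.1 to 12.21 in double arrays (2.18 ± 0.26, limma adjusted p = 0.000106), with other probe sets at 1.69 and 0.05. Pcdh7 rose by 1.80 (SE 0.21, limma adjusted p = 0.000106), and its other probe sets by 2.34 and 1.02. Rbpj, the DNA-binding partner of Notch, ran from 9.83 to 10.6 in control and from 11.45 to 12.22 in double arrays, and its 3 probe sets rose by 1.75, 1.38 and 1.45. The adhesion molecule Icam1 ran from 5.8 to 7.43 in control and from 9.13 to 10.36 in double arrays (3.09 ± 0.41, limma adjusted p = 0.000237). Ctsf, another lysosomal cathepsin, rose by 1.93 (SE 0.25), with a second probe set at 0.22, and Tcn2, the vitamin B12 carrier, by 1.71 (SE 0.22), with 4 other probe sets between 0.93 and 1.71. Mertk, a receptor for the uptake of dying cells, rose by 1.76 (SE 0.24). Among falls, Jdp2, an AP-1 repressor, was at -1.23 with its second probe set at 0.01, Rab39b at -1.45 with -1.84 at its second probe set, and Acot2, a mitochondrial acyl-CoA thioesterase, at -1.77 with -0.38.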
